A study of Arabidopsis thaliana with 8 samples.

Results

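The HD2-type histone deacetylases HD2A (AT3G44750, also HDA3), HD2B (AT5G22650, also HDA4), HD2C (AT5G03740) and HD2D (AT2G27840) were followed across single nuclei of globular Arabidopsis embryos, beside the RPD3-type deacetylases HDA6 (AT5G63110), HDA9 (AT3G44680) and HDA19 (AT4G38130). These 7 genes were taken by their locus identifiers from the 33668 features counted in each nucleus, and all 7 were detected. They were chosen with results of these nuclei known, and the study itself had named HD2A and HD2B from these nuclei as embryo-proper genes, so the values of those genes between embryo proper and suspensor describe the pattern and are not independent evidence of it. The experiment is a single-nucleus RNA-seq of 744 nuclei on 8 plates of 93, made with Smart-seq2, which sequences full-length cDNA without molecular identifiers. Nuclei came from developing seeds of Col-0 plants (wild-type genotype in the labels) that carry a GFP reporter driven by the promoter of WOX2, an embryo gene, and each was sorted by its DNA stain and GFP into a well of its own. All plates are of 1 condition and stage, seeds were pooled before sorting, and the plate is the replicate.

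Histone deacetylases remove acetyl groups from histone tails, which as a rule goes with a less accessible chromatin. The HD2 family is found only in plants and is unrelated in sequence to the RPD3-type enzymes that plants share with yeast and animals. HD2 proteins were first isolated from maize as a nucleolar phosphoprotein, and in Arabidopsis several of them lie in the nucleolus, where HD2A is known for its part in the silencing of rRNA genes in nucleolar dominance and HD2C has been tied to ribosome biogenesis. HDA6 is best known for silencing transposons and rRNA gene repeats, HDA19 as the deacetylase of repressor complexes with SIN3-like and TOPLESS proteins, which it needs in embryo patterning, and HDA9 for its work with the SANT-domain protein POWERDRESS.

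The start regions of the 4 HD2 genes and of HDA19 are shown because these genes carry the results that follow, and because HD2 levels are set below against ribosomal and nucleolar genes, whose promoters often hold 2 short elements, the telo box (AAACCCTA) and site II (TGGGCC or TGGGCT). Each runs from 250 bases before to 50 bases after the RefSeq gene start in TAIR10.1, 5′ to 3′ on the strand of the gene, in lower case, with site II matches on either strand in capitals (GGCCCA is the reverse of TGGGCC).
HD2A (chr3:16297406-16297705, plus strand): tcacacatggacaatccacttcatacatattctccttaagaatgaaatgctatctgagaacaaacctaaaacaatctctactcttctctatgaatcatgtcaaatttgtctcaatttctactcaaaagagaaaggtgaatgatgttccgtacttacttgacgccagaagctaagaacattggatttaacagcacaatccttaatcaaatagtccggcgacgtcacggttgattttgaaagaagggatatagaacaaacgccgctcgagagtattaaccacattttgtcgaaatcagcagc
HD2B (chr5:7533696-7533995, plus strand): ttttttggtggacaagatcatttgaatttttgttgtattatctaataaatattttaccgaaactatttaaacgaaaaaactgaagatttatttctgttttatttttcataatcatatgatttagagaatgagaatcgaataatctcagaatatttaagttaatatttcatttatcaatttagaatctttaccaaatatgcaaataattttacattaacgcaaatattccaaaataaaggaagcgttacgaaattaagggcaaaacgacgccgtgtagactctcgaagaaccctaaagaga
HD2C (chr5:981609-981908, plus strand): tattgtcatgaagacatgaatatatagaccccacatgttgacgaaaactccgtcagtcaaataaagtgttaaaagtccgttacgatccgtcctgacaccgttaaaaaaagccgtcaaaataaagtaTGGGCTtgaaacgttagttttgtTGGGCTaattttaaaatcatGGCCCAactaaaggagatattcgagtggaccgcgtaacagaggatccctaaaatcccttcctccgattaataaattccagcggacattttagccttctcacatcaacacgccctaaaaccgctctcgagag
HD2D (chr2:11861556-11861855, plus strand): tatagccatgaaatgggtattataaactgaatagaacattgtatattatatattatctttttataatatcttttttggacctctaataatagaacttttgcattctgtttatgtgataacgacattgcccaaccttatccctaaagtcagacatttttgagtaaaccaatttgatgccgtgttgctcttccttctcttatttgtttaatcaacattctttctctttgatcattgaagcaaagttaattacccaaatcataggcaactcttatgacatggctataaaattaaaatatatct
HDA19 (chr4:17899460-17899759, minus strand): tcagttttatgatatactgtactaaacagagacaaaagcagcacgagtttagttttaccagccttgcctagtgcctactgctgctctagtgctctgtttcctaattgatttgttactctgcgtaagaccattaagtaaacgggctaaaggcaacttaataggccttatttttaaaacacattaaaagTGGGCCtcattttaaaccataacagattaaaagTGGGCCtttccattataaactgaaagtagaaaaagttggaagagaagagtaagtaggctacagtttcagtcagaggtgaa
No start region of the 7 genes held the telo box on either strand, which 6.21% of 27476 protein-coding start regions did. Site II stood 3 times in HD2C, with first bases 124, 101 and 81 bases before the start, and 2 times in HDA19, at 63 and 30 bases before it. Of all start regions 21.7% held at least 1 site II, and the other 5 of the 7 genes held none. A match of letters is a description of these windows only.

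Limits of 100000 counts and 1000 features a nucleus left 534 nuclei, 46 to 83 a plate, with 21257765 to 50998340 counts a plate. They were grouped by the summed level of marker genes, none of them a deacetylase, into 87 suspensor-like, 55 seed-coat-like, 53 quiescent-center-and-columella-like and 135 embryo-proper-like nuclei (77 protoderm-like and 58 vascular-like); 4 were endosperm-like and 200 were not assigned, 64 of them near a limit. The limits were set after seeing the data, so these groups are not the study's clusters. Levels are CPM, counts scaled to a total of 1000000 over nuclear genes without rRNA genes and the pre-rRNA feature described further on, and they give a gene's share of a nucleus's RNA, not its amount per nucleus. The suspensor markers summed to 2978 to 5813 CPM over plates in suspensor-like nuclei, against 55.2 to 315 CPM in embryo-proper-like nuclei, with all 13 detected in both. The seed coat markers summed to 5191 to 23310 CPM in seed-coat-like nuclei, against 1065 to 3417 CPM in embryo-proper-like and 523 to 2093 CPM in suspensor-like nuclei. The seed coat is a maternal tissue, in which the embryo reporter should be silent. Of the 55 seed-coat-like nuclei 13 lay near a limit, and Leiden clustering put 27 of them in the seed coat cluster, 11 in the protoderm, 6 in the suspensor and 2 in the vascular clusters, against 66 of the 87 suspensor-like nuclei in the suspensor cluster.

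Over all retained nuclei, HD2 genes stood above the RPD3-type genes per length of transcript. In CPM per kilobase of the longest transcript, HD2B averaged 184 ± 43.3, HD2C 130 ± 39.1, HD2A 121 ± 62.2, HD2D 88.5 ± 34.3, HDA19 52.3 ± 29.7, HDA9 21.4 ± 10.7 and HDA6 11.1 ± 5.74 (SD, n = 8 plates). The plate values of all neighbours in this order overlapped. Within plates HDA19 stood above HDA9 and HDA9 above HDA6 on 8 of 8 plates, HD2B was above HD2C on 7 plates, HD2C above HD2A on 6, HD2A above HD2D on 6 and HD2D above HDA19 on 7. HD2B was detected in 301 of the 534 nuclei, HD2A in 219, HD2D in 191, HD2C in 188, HDA19 in 187, HDA9 in 77 and HDA6 in 53. Reads of HD2A cannot be told apart by strand from the antisense gene AT3G44740, which covers the first 315 of its 1418 exonic bases and had 10735 counts to the 42492 of HD2A. The other overlapping genes had few counts, with 37 for AT5G22660 (HD2B) and 125 for AT5G63100 (HDA6), and the near copies of HDA9, HDA10 and HDA17, had 207 and 324 counts to the 8632 of HDA9.

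HD2A fell in suspensor-like nuclei, and it was the only 1 of the 7 genes whose plate values in the suspensor lay apart from those in the embryo proper. In suspensor-like nuclei its lowest, median and highest plate were 0, 8.35 and 144 CPM, against 176, 274 and 933 CPM in embryo-proper-like nuclei. Every suspensor-like sum lay below every embryo-proper-like sum, with plate 8 the highest of the suspensor-like sums and plate 3 the highest of the embryo-proper-like ones. The means were 30.8 ± 49.9 CPM in suspensor-like and 341 ± 246 CPM in embryo-proper-like nuclei (SD, n = 8 plates each). The fitted log2 difference was -6.09 (SE 1.38, edgeR's quasi-likelihood test with plate as a block, two-sided, Benjamini-Hochberg adjusted p = 0.00300). The sums without counts on 3 suspensor-like plates make the size of this fit depend on the model, and the ratio of the means was 0.0902. In this comparison 8.51% of the 10868 genes tested were called, 4.98% lower and 3.53% higher, and the median gene lay at -0.40. Without the plate block the difference was -3.44 (adjusted p = 0.0553 by edgeR).

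The share of nuclei with a count gave the same order for HD2A. It had a count in 13 of 87 suspensor-like nuclei (14.9%, 95% exact binomial interval 8.20 to 24.2%), against 80 of 135 embryo-proper-like nuclei (59.3%, 50.5 to 67.6%). Thinning every nucleus to 100000 counts left 14.9% of the suspensor-like and 54.8% of the embryo-proper-like nuclei. Among nuclei with a count, the median level was 66.6 CPM in suspensor-like and 205 CPM in embryo-proper-like nuclei. A single nucleus held 33.5% of the 1559 suspensor-like counts, against 6.85% of the 17431 embryo-proper-like ones. The median suspensor-like nucleus had 519877 counts and 3295 features, against 514317 counts and 2354 features in the embryo proper. The antisense gene AT3G44740 had 1661 counts in 15 suspensor-like nuclei and 4702 in 20 embryo-proper-like ones, and its part in the HD2A counts was not tested.

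HD2B also fell in suspensor-like nuclei. Its lowest, median and highest plate were 0.392, 59.3 and 488 CPM in suspensor-like nuclei, against 131, 385 and 773 CPM in embryo-proper-like nuclei. It was lower on 7 of 8 plates, and the ranges overlapped because plates 6 and 8 reached 272 and 488 CPM in the suspensor. On plate 8 a single nucleus held 1770 of the 1778 counts of HD2B. The fitted log2 difference was -3.52 (SE 1.08, adjusted p = 0.0328, edgeR). This call was lost without plate 1, 2, 3, 4 or 7 (adjusted p of 0.0555 to 0.0925), with equal numbers of nuclei per plate (0.0552) and without the plate block (-1.85, adjusted p = 0.286). HD2B was detected in 31.0% of suspensor-like nuclei (21.5 to 41.9%), against 64.4% of embryo-proper-like nuclei (55.8 to 72.5%), and, after thinning, in 19.5% of suspensor-like and 57.0% of embryo-proper-like nuclei.

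HD2D and HD2C did not pass this test, though other settings called HD2D in 3 of 18 alternatives and HD2C in 1 of 18. HD2D had a lowest, median and highest plate of 0.196, 29.9 and 221 CPM in suspensor-like nuclei, against 92.2, 131 and 363 CPM in embryo-proper-like nuclei. Only plate 5, with 221 CPM, put a suspensor-like sum of HD2D above its embryo-proper-like partner. All 515 counts of that sum came from a single nucleus. The fitted log2 difference of HD2D was -2.99 (SE 1.33, adjusted p = 0.190, edgeR), and it was detected in 17.2% of suspensor-like against 51.9% of embryo-proper-like nuclei. HD2C reached 0, 72.3 and 189 CPM on its lowest, median and highest plate in suspensor-like nuclei, against 90.4, 253 and 417 CPM in embryo-proper-like nuclei. It was lower on 7 of 8 plates and the ranges overlapped. Its fitted log2 difference was -2.15 (SE 0.973, adjusted p = 0.20, edgeR), while the share of nuclei with a count was close, at 33.3% (23.6 to 44.3%) of suspensor-like nuclei and 37.8% (29.6 to 46.5%) of embryo-proper-like ones.

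The RPD3-type genes were not called between suspensor and embryo proper with these settings, while HDA6 was called in 1 of 15 alternatives. HDA19 had a lowest, median and highest plate of 2.55, 35.3 and 308 CPM in suspensor-like nuclei, against 24.0, 60.7 and 569 CPM in embryo-proper-like nuclei, with a log2 difference of -0.997 (SE 1.14, adjusted p = 0.71, edgeR). It was detected about as often in both, in 35.6% (25.6 to 46.6%) of suspensor-like and 37.0% (28.9 to 45.8%) of embryo-proper-like nuclei. HDA9 reached 0, 11.3 and 28.3 CPM in suspensor-like nuclei, against 0, 26.8 and 115 CPM in embryo-proper-like nuclei (log2 difference -0.87, SE 2.45, adjusted p = 0.910, edgeR). HDA6 was the least detected, in 4 of 87 suspensor-like and 10 of 135 embryo-proper-like nuclei. It was at 0 on 6 of the 8 suspensor-like plates and on 2 of the embryo-proper-like ones, so its fitted value (-7.25, SE 3.04, adjusted p = 0.157, edgeR) says little of the size of a difference. The standard errors of HDA6 and HDA9 leave room for differences as large as those of the HD2 genes. That of HDA19 leaves room for a difference as large as those of HD2C and HD2D.

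**Figure D1:**
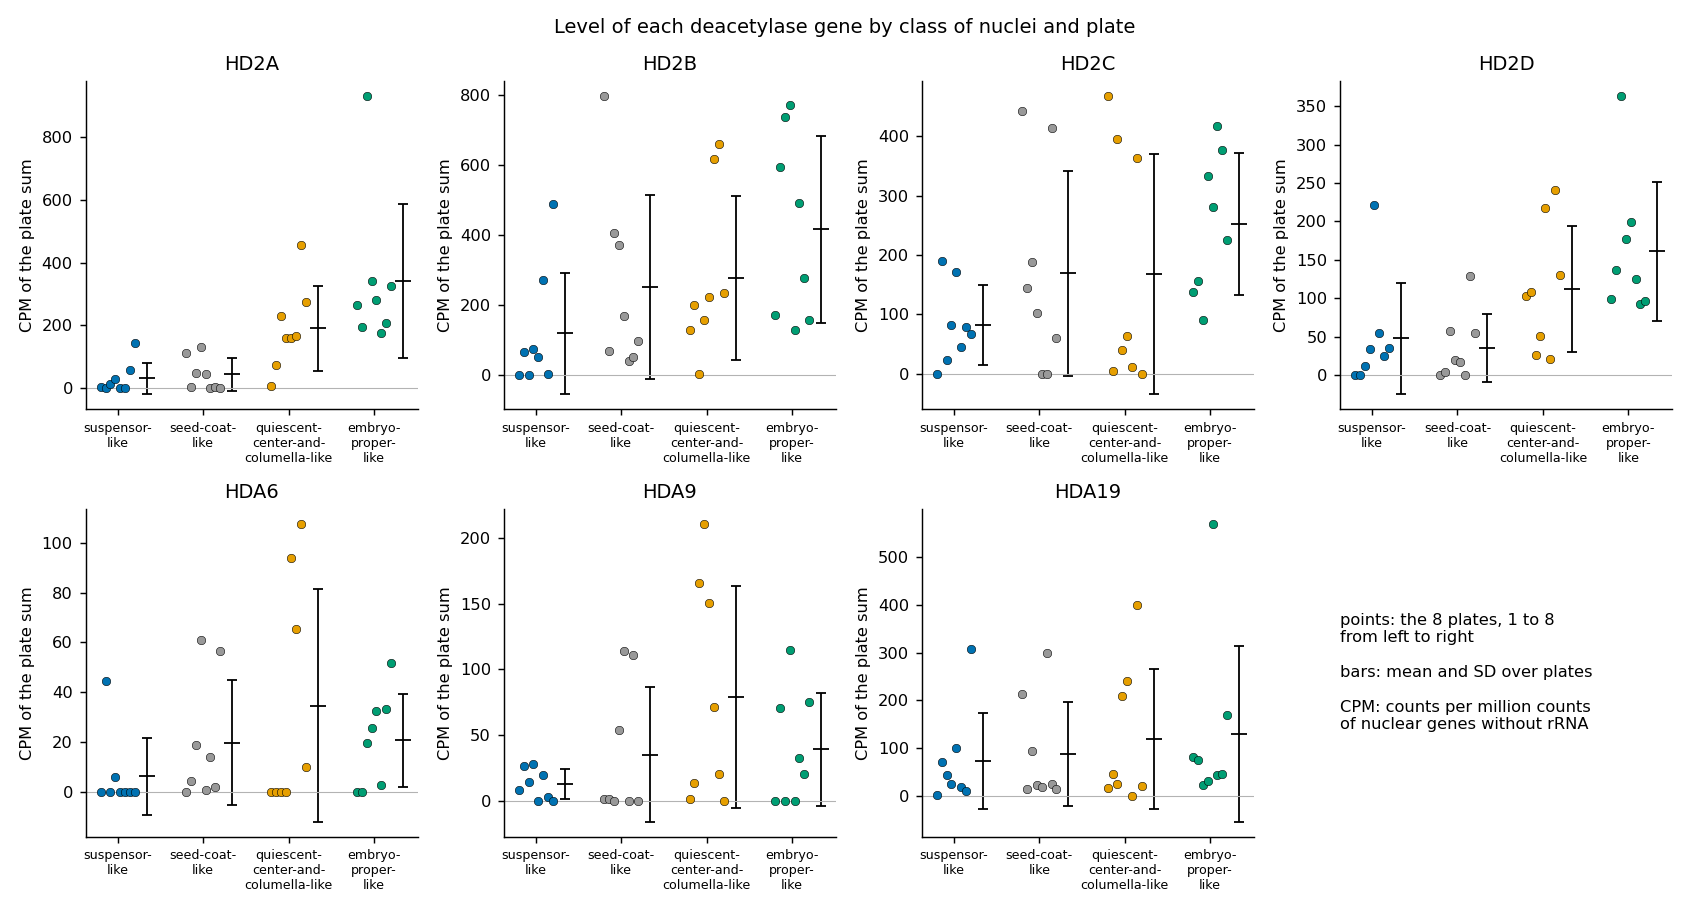
Level of each of the 7 genes (CPM of counts summed per plate, linear axis) in suspensor-like, seed-coat-like, quiescent-center-and-columella-like and embryo-proper-like nuclei. Points are the 8 plates and bars the mean and SD; the HD2A points of the suspensor-like nuclei (0 to 144 CPM) all lie below those of the embryo-proper-like nuclei (176 to 933 CPM), while the points of HDA6, HDA9 and HDA19 overlap between all groups.

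Cell cycle markers moved with the same contrast. The 12 mitosis markers summed to 37.6 to 449 CPM over plates in suspensor-like nuclei (11 detected, HIK at 0), against 370 to 4063 CPM in embryo-proper-like nuclei (all 12 detected). The 11 DNA replication markers summed to 26.4 to 1201 CPM in suspensor-like and 797 to 2283 CPM in embryo-proper-like nuclei, with all 11 detected in both. Against the 75 embryo-proper-like nuclei outside both cell cycle states, an alternative added after seeing the data, HD2A was still called (log2 difference -5.22, adjusted p = 0.0301, edgeR), and HD2B was not (-2.86, adjusted p = 0.244). With these smaller sums the median gene lay at 1.00, in place of -0.40, so that HD2A stood 6.22 below the median gene there and 5.69 below it in the comparison with all 135 nuclei. The fitted difference itself was -6.09 with all 135 nuclei. The part of the cell cycle in it was not tested.

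Seed-coat-like nuclei also had little HD2A. Its lowest, median and highest plate were 0, 25.3 and 131 CPM in seed-coat-like nuclei, against the 176, 274 and 933 CPM of embryo-proper-like nuclei, and again no seed-coat-like sum reached an embryo-proper-like one. HD2A was called (log2 difference -4.44, SE 1.12, adjusted p = 0.00774, edgeR), where 2.58% of the 10392 genes tested were, 1.83% lower and 0.751% higher, with the median gene at -0.95. That call was lost without plate 2, 3 or 8 (adjusted p of 0.0533 to 0.0739), under stricter limits on nuclei (0.0594), with equal numbers of nuclei (0.288), against embryo-proper-like nuclei outside both cell cycle states (0.350) and without the plate block (-2.93, adjusted p = 0.111).

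The other HD2 genes were not called in the seed coat with the same settings. HD2B averaged 251 ± 263 CPM in seed-coat-like and 417 ± 266 CPM in embryo-proper-like nuclei (SD, n = 8 plates each; log2 difference -1.21, SE 0.769, adjusted p = 0.497, edgeR), and had a count in 69.1% of seed-coat-like nuclei, against 64.4% of embryo-proper-like ones. HD2C averaged 169 ± 173 CPM in seed-coat-like and 252 ± 119 CPM in embryo-proper-like nuclei (log2 difference -1.31, SE 1.04, adjusted p = 0.619, edgeR). HD2D was lower on 7 of 8 plates, at 35.6 ± 44.3 CPM in seed-coat-like and 161 ± 90.4 CPM in embryo-proper-like nuclei (log2 difference -3.65, SE 1.54, adjusted p = 0.221, edgeR). So with these settings only HD2A was called in both comparisons, and these share the embryo-proper-like nuclei. Other settings called HD2D in 2 of 17 alternatives in the seed coat and in 3 of 18 in the suspensor. The log2 differences of HDA6, HDA9 and HDA19 were 0.07, -1.0 and -0.67, each smaller than its standard error.

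No test was run on the quiescent-center-and-columella-like nuclei. HD2A averaged 191 ± 136 CPM there, lower than the embryo-proper-like sum on 7 of 8 plates. Its range of 7.97 to 457 CPM overlapped that of the embryo proper. It was detected in 58.5% of these nuclei, against 59.3% of embryo-proper-like ones. HD2B averaged 279 ± 234 CPM, HD2C 168 ± 202 CPM and HD2D 112 ± 82.4 CPM, all with ranges that overlapped those of the embryo proper. Within the embryo proper, HD2A averaged 421 ± 287 CPM in protoderm-like and 226 ± 248 CPM in vascular-like nuclei, higher in the protoderm on 7 of 8 plates, with overlapping ranges and no test.

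**Figure D2:**
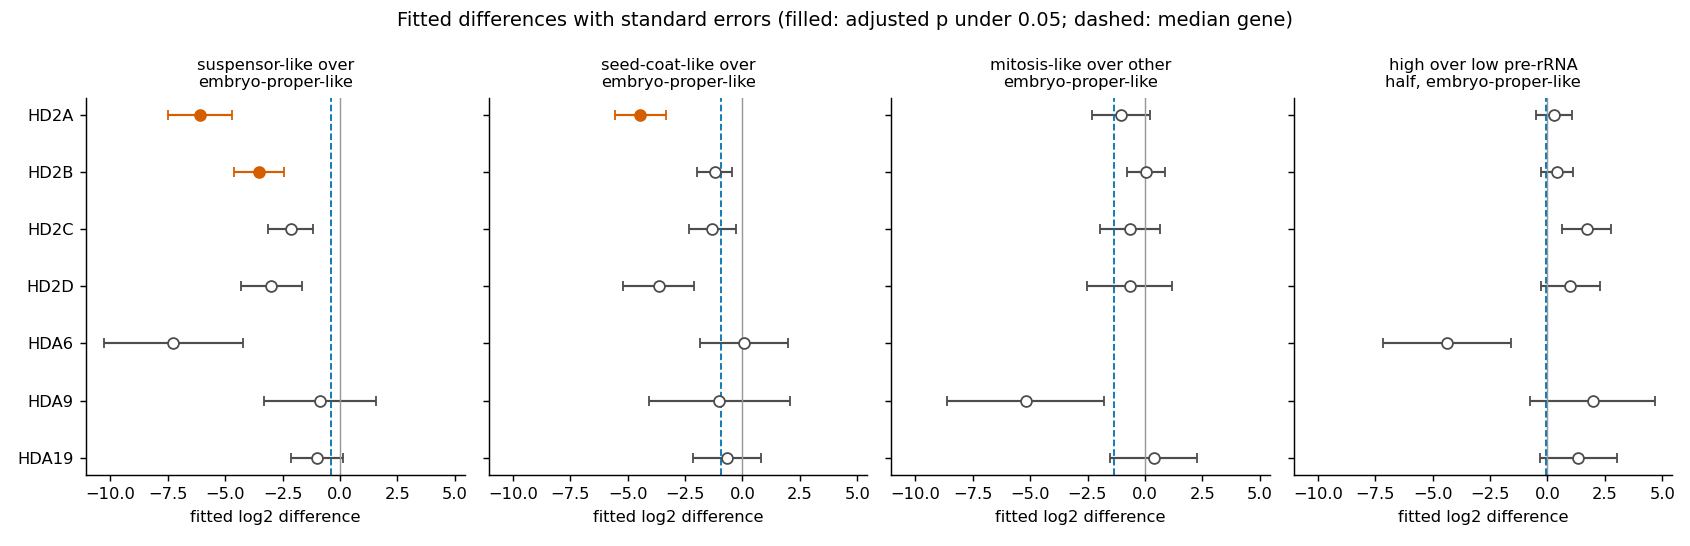
Fitted log2 difference of each gene in 4 comparisons (points, with standard errors as bars; filled where the adjusted p is under 0.05; the dashed line is the median gene). HD2A is called in the suspensor-like (-6.09) and seed-coat-like (-4.44) comparisons, HD2B in the suspensor-like one (-3.52), and no gene in the mitosis-like or pre-rRNA comparison, where HDA6 was too low for the mitosis-like fit.

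HD2 genes were also counted per nucleus. None of the 4 HD2 genes had a count in 35 of 87 suspensor-like nuclei (40.2%), 10 of 55 seed-coat-like nuclei (18.2%) and 17 of 135 embryo-proper-like nuclei (12.6%). At the other end, 3 suspensor-like nuclei had 3 HD2 genes and 3 had all 4, against 34 and 21 embryo-proper-like nuclei. None of the 3 RPD3-type genes had a count in 48.3% of suspensor-like and 55.6% of embryo-proper-like nuclei. After thinning to 100000 counts, 47.1% of suspensor-like and 17.0% of embryo-proper-like nuclei had no HD2 gene.

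**Figure D3:**
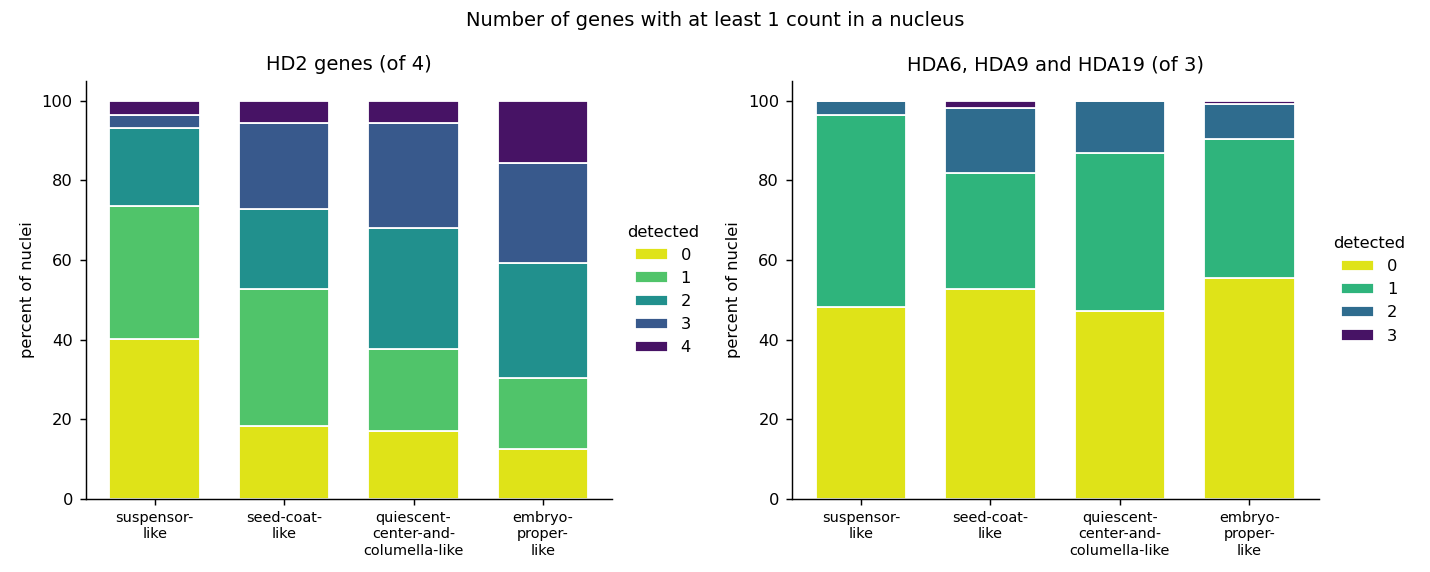
Percent of nuclei in which 0 to 4 HD2 genes (left) or 0 to 3 of HDA6, HDA9 and HDA19 (right) had at least 1 count, by group of nuclei. The part without any HD2 gene is 40.2% in suspensor-like nuclei and 12.6% in embryo-proper-like nuclei, while that without an RPD3-type gene is 48.3% of suspensor-like and 55.6% of embryo-proper-like nuclei.

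Summed, the 4 HD2 genes averaged 281 ± 236 CPM in suspensor-like and 1171 ± 482 CPM in embryo-proper-like nuclei, and the 3 RPD3-type genes 91.9 ± 97.5 CPM in suspensor-like nuclei and 190 ± 184 CPM in the embryo proper (SD, n = 8 plates each). The ratio of HD2 to RPD3-type counts does not depend on the scaling. It was 3.20 over all suspensor-like nuclei and 6.41 over all embryo-proper-like ones, and lower in the suspensor on 6 of 8 plates. Over plates it ran from 0.491 to 11.1 in suspensor-like and from 1.48 to 48.8 in embryo-proper-like nuclei, so the groups overlapped widely. With Leiden clusters in place of marker scores the pooled ratios were 2.05 in the suspensor and 7.75 in the embryo proper. A low ratio was not particular to the suspensor. By marker scores, quiescent-center-and-columella-like nuclei had a pooled ratio of 3.63, lower than the embryo proper on 6 of 8 plates. Seed-coat-like nuclei had 4.84, lower on 5 of 8. Within the embryo proper it was 3.92 in mitosis-like and 8.47 in other nuclei.

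The feature AT3G06355 was used as a measure of pre-rRNA. It is a 502-base non-coding transcript at chr3:14199575-14200076 (TAIR10.1) that overlaps a 5.8S rRNA gene next to an 18S rRNA gene, and it took 8.38% of all counts of retained nuclei. Libraries were made from polyadenylated RNA, so its share of counts need not follow the amount of pre-rRNA. It took 4.21 ± 2.79% of the counts of suspensor-like and 13.5 ± 6.21% of those of embryo-proper-like nuclei (SD, n = 8 plates each), lower in the suspensor on 8 of 8 plates (exact two-sided sign-flip permutation test, p = 0.0078125, the smallest it can give, and 0.0156 adjusted over 4 comparisons). In seed-coat-like nuclei it took 3.31 ± 2.54%, lower than in embryo-proper-like nuclei on 8 of 8 plates with the same p. In quiescent-center-and-columella-like nuclei it took 9.09 ± 4.68%, lower on 7 of 8 plates (adjusted p = 0.0313, same exact test), and it did not separate mitosis-like from other embryo-proper-like nuclei (14.2 ± 6.90% and 13.7 ± 7.41%, exact p = 0.844, n = 7 plates).

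Within the embryo proper, no deacetylase was called between nuclei of high and low pre-rRNA share. Embryo-proper-like nuclei were split at the median pre-rRNA share of their plate into 64 high and 71 low nuclei, with a median share of 21.4% and 4.58%, and a median depth of 567418 and 370986 counts. All 4 HD2 genes lay above 0 in the fit, between 0.27 (HD2A, SE 0.777) and 1.70 (HD2C, SE 1.06, unadjusted p = 0.108), and none was called by edgeR, with an adjusted p of 1 for each. The median gene lay at -0.06, and HD2A, HD2B (0.41, SE 0.705) and HD2D (0.99, SE 1.29) lay within 1 SE of 0. Among the 7860 genes tested 0.0127% were called, a single gene that was lower, and 163 had an unadjusted p under 0.05. HD2C averaged 308 ± 161 CPM in the high and 194 ± 193 CPM in the low nuclei (SD, n = 8 plates each), and was detected in 48.4% (35.8 to 61.3%) of the high and 28.2% (18.1 to 40.1%) of the low ones. HD2A was detected in 53.1% of the high and 64.8% of the low nuclei, the other direction. The RPD3-type genes lay at 1.35 (HDA19, SE 1.67), 1.97 (HDA9, SE 2.72) and -4.36 (HDA6, SE 2.79).

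Over single nuclei the correlation with the pre-rRNA share is given as a description, on log2(CPM + 1) within each plate. In the 135 embryo-proper-like nuclei, Pearson's r averaged 0.34 for HD2C (positive on 7 of 8 plates), 0.30 for HD2B, 0.22 for HD2D and 0.13 for HD2A, against 0.05 for the median gene. The RPD3-type genes overlapped with these, at 0.22 for HDA9 (positive on all 5 plates with a value), 0.04 for HDA19 and -0.02 for HDA6. In the 87 suspensor-like nuclei HD2C averaged 0.37 and HD2B 0.20, while HD2D (0.05) and HD2A (0.03, positive on 2 of the 5 plates with a value) lay below the median gene at 0.12. HDA19 averaged 0.20, HDA6 0.16 (on 2 plates with a value) and HDA9 0.04 there. In the 475 nuclei that were neither seed-coat-like nor endosperm-like, a mixture of types that differ in both measures, it averaged 0.33 for HD2A, 0.30 for HD2B, 0.28 for HD2D and 0.26 for HD2C, each positive on all 8 plates, against 0.15 for HDA6, 0.11 for HDA19, 0.08 for HDA9 and 0.07 for the median gene. A positive average of r was common among the 9543 genes detected in at least 10% of retained nuclei. It held for 68.1% of them in embryo-proper-like, 76.0% in suspensor-like and 80.6% in the 475 nuclei. Nuclei of a plate share library preparation, and deeper nuclei had a higher pre-rRNA share. Spearman's rho between depth and pre-rRNA share averaged 0.32 in embryo-proper-like nuclei, 0.56 in suspensor-like nuclei and 0.43 in the 475. The part of depth and of shared preparation in these values was not tested. Splitting these 475 nuclei the same way gave HD2A a log2 difference of 1.41 (SE 0.356, unadjusted p = 0.00074, adjusted p = 0.104, edgeR), where 44 genes were called.

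**Figure D4:**
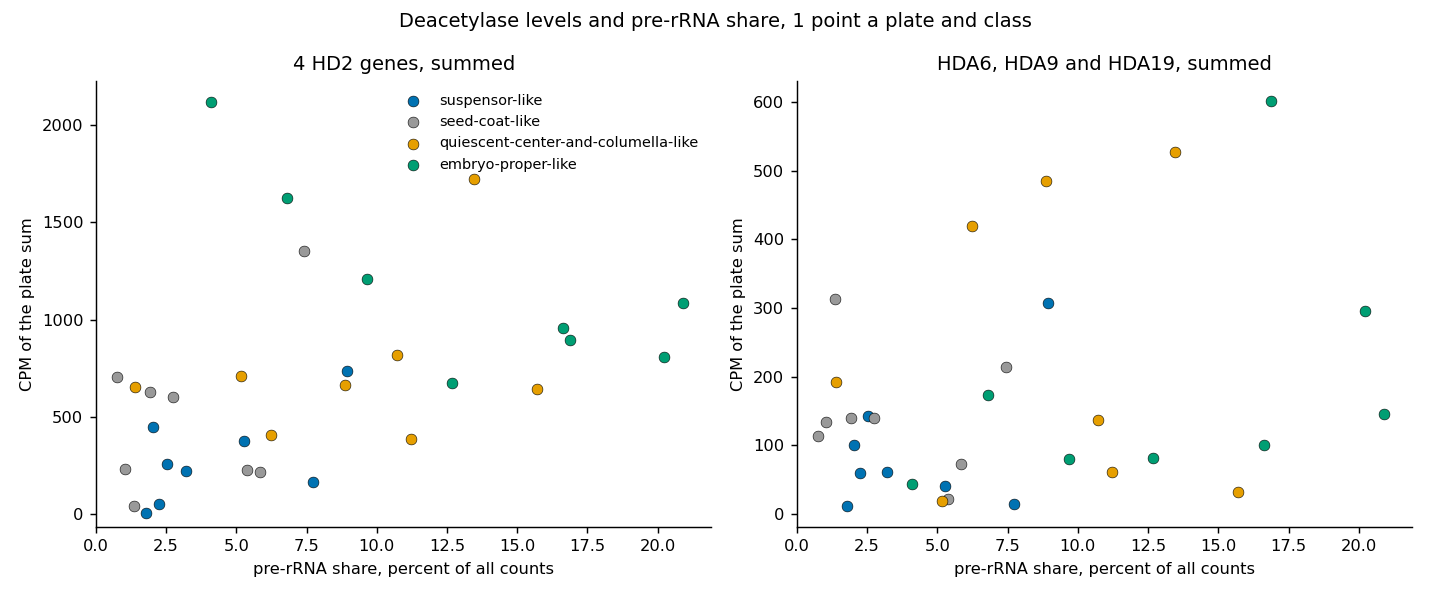
Summed level of the 4 HD2 genes (left) and of HDA6, HDA9 and HDA19 (right), in CPM, against the pre-rRNA share in percent of all counts, with 1 point for each plate and group of nuclei. Suspensor-like points lie at 1.79 to 8.95% pre-rRNA and 5.29 to 735 CPM of HD2, embryo-proper-like points at 4.11 to 20.9% and 675 to 2122 CPM. Among embryo-proper-like points, plate 3 has the lowest share (4.11%) and the highest HD2 level (2122 CPM), while plate 2 has the highest share (20.9%) and 1084 CPM. Among suspensor-like points, plate 1 is lowest and plate 8 highest in both.

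Mitosis went with no called change of a deacetylase. In 31 mitosis-like against 83 other embryo-proper-like nuclei on 7 plates (plate 1 had none that were mitosis-like), 0.907% of the 7385 genes tested were called (0.623% higher and 0.284% lower) and 583 had an unadjusted p under 0.05, and the median gene lay at -1.37. No deacetylase was called by edgeR, with HD2A at -1.05 (SE 1.27), HD2D at -0.67 (SE 1.83), HD2C at -0.65 (SE 1.29), HD2B at 0.04 (SE 0.837), HDA19 at 0.39 (SE 1.89) and HDA9 at -5.20 (SE 3.44). HDA6 was too low to be tested. On plate 6 the mitosis-like sum rested on 1 nucleus, with HD2B at 1589 CPM and no count of an RPD3-type gene. The shares of nuclei with a count are over all 104 other embryo-proper-like nuclei, plate 1 included. They were 74.2% in mitosis-like and 54.8% in other embryo-proper-like nuclei for HD2A, and 58.1% in mitosis-like and 30.8% in other ones for HDA19, each with overlapping exact intervals.

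Genes that work with deacetylases, or against them, were read from lists chosen with earlier results of these data known. Of 19 partners of RPD3-type deacetylases, all 19 were tested between suspensor and embryo proper, and 1 was called, where 8.51% of all genes tested were, so the count gives no result about the partners. The called gene was SNL1, a SIN3-like scaffold protein, which rose by 1.95 in suspensor-like nuclei (SE 0.588, adjusted p = 0.0297, edgeR). This call was lost without plate 2, 4 or 8 (adjusted p of 0.0792 to 0.103) and without the filter on low counts (0.0888). The partner list had a median of -0.63, against -0.40 for all genes. None of 11 acetyltransferases tested of 12 was called, with a median of -0.13 and HAC1, an acetyltransferase of the CBP family, at 0.86 (SE 0.819). Of 11 other RPD3-type and sirtuin deacetylases, 6 could be tested and none was called.

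Of 17 nucleolar and pre-rRNA processing genes, all 17 were tested between suspensor and embryo proper. In suspensor-like nuclei 5 of the 17 fell and none rose, where 4.98% of all genes tested fell and 3.53% rose, and the list median was -3.38, against -0.40 for all genes. NOP56, a core protein of box C/D ribonucleoproteins, had a log2 difference of -3.94 (SE 0.414, adjusted p = 1.55e-08). CBF5, the pseudouridine synthase of box H/ACA ribonucleoproteins (NAP57 in RefSeq), had -4.73 (adjusted p = 0.00035), AT5G27120, annotated as a NOP56-like ribonucleoprotein, -5.91 (adjusted p = 0.000108), and FIB2, a fibrillarin that methylates rRNA, -7.64 (adjusted p = 0.00414), all by edgeR. The fifth was AT3G05060, a paralogue of AT5G27120. In seed-coat-like nuclei 3 of the 17 were called lower, NOP56, FIB2 and AT5G27120, none higher, where 1.83% of all genes tested were lower and 0.751% higher, with a list median of -2.09 against -0.95 for all genes; against the nuclei outside the cell cycle states none of these 3 was called (adjusted p of 0.0805 to 0.423). In the mitosis-like and the pre-rRNA comparison no gene of any list was called by edgeR.

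**Figure D5:**
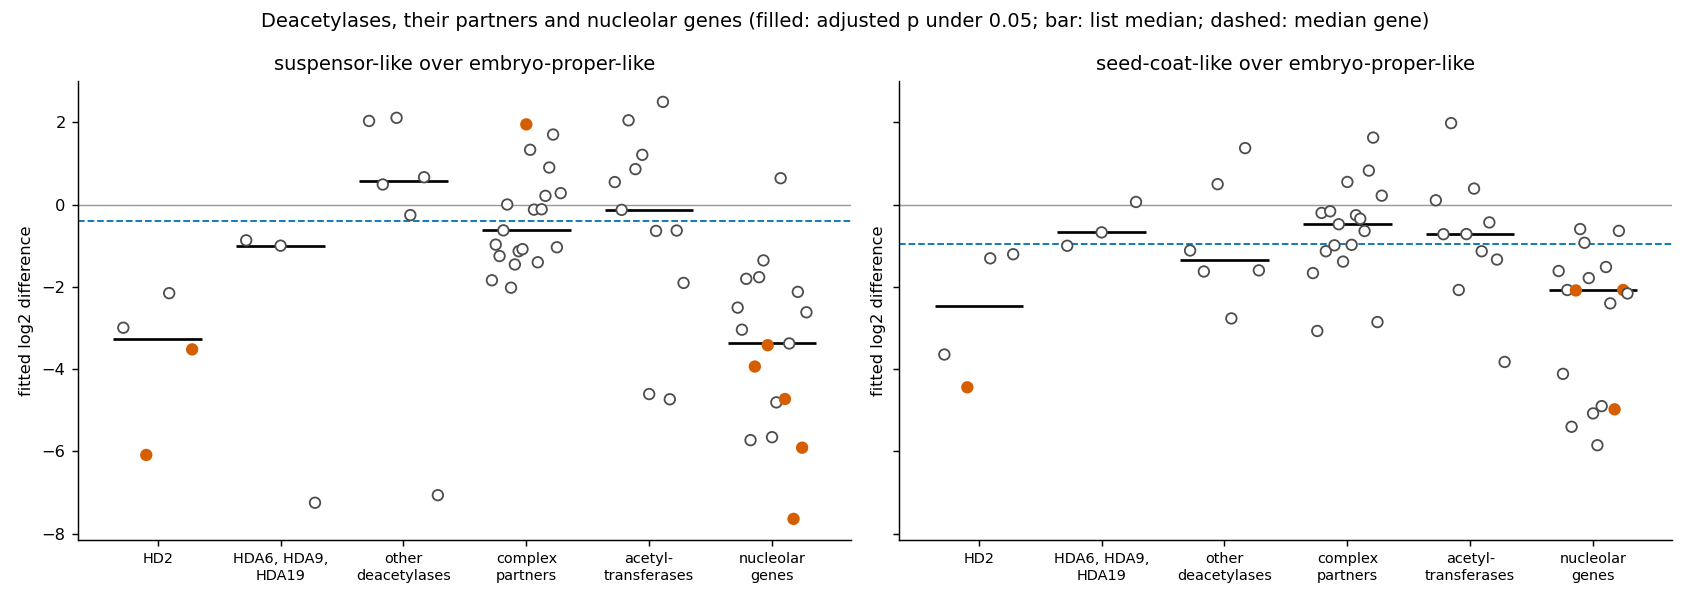
Fitted log2 differences of the HD2 genes, the RPD3-type genes and the 4 other lists in the suspensor-like (left) and seed-coat-like (right) comparison; filled points have an adjusted p under 0.05, bars are list medians and the dashed line the median gene. The HD2 and nucleolar lists have medians of -3.26 and -3.38 in the left panel, below the median gene at -0.40.

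Among 9537 genes ranked by their correlation with the summed HD2 level over the 534 nuclei (log2(CPM + 1), centred by plate), the 10 highest were RPL18 (Pearson's r 0.40), AT5G46430, AT1G52300, ERL1, CBF5, AT4G17390, AT4G39200, AT3G55750, emb2171 and AT1G70600 (0.36). Of these 8 encode ribosomal proteins, a count with no background share beside it, and ERL1 is a receptor kinase of the ERECTA family. CBF5 was the only 1 of the 17 nucleolar list genes among the 10 highest, and 4 of the 17 were among the 100 highest. Within the 135 embryo-proper-like nuclei the same 10 correlated at 0.08 (AT4G39200) to 0.33 (AT3G55750). The median gene stood at 0.05, the number of detected features at 0.22 and the log2 pre-rRNA share at 0.44. These correlations describe nuclei that share plates and differ in type, and no test was made of them. Among the 7 genes themselves, the closest pairs over the 534 nuclei were HD2A with HD2B (0.30, both detected in 168 nuclei), HD2B with HD2D (0.28) and HD2A with HD2D (0.27). The families were not separate in this, since HD2C with HD2D (0.12) was below HD2B with HDA6 (0.17). By Spearman's rho HD2C with HDA6 reached 0.25 and HD2D with HDA6 0.23, against 0.35 for HD2A with HD2D, the highest pair.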

How the data were processed

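The data are single-nucleus Smart-seq2 libraries of 744 nuclei. The authors trimmed reads with cutadapt 2.6, quantified transcripts with kallisto against TAIR10 and deposited estimated counts per gene, in whole numbers and without normalization. The step from transcripts to whole-number gene values is not given in the sources used here. Index tables were not used here. The 7 genes, the gene lists and the markers were chosen with earlier results of these data known.

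A nucleus was scored for each marker class by the mean standardized log2(CPM + 1) of markers found in at least 10 nuclei, capped at 3. It was assigned where the best score was above 0, led by at least 0.2 and rested on at least 3 detected markers; a mitosis or replication score of at least 0.5 gave the cell cycle state. No doublet caller was run on nuclei sorted 1 to a well, and free RNA was not corrected. Counts of nuclear genes without rRNA were summed per plate and group and tested with edgeR 4.0.16 in R 4.3.3 (filterByExpr, TMM, quasi-likelihood, two-sided, Benjamini-Hochberg at 0.05). Plate was a block, because both groups of a pair come from the same library plate. Markers were left out of the genes tested. Standard errors are the log2 difference over the square root of F. Nothing in the labels says that plates came from separate seed batches, so p-values may measure technical spread only.

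Named were the 7 genes, up to 4 called genes of each list per comparison by size, AT3G06355, and the 10 genes closest to the summed HD2 level among those detected in at least 10% of nuclei; AT3G05060, the list's uncalled HAC1 and genes that overlap or copy a deacetylase were named after their values were seen. Other settings tried were limma 3.58.1 on the mean log2 level of a group's nuclei, DESeq2 1.42.0, other scaling, no filter, no block, stricter limits (200000 counts and 1500 features), a stricter score margin, Leiden clusters (scanpy 1.11.5), tertiles of pre-rRNA share, equal numbers of nuclei, nuclei outside the cell cycle states and leaving out each plate. The tests were tried on simulated counts. Thinning drew 100000 counts per nucleus. Intervals are exact binomial over nuclei pooled across plates. They treat nuclei as independent, although nuclei of a plate share library preparation, so they cover counting error only and not the spread between plates. Reads are not independent molecules here. RefSeq of TAIR10.1 gave names, positions and start regions. Python 3.11.15, scipy 1.17.1 and pandas 2.3.3 did the rest.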

Additional observations from a re-analysis of the deposited data

Results flagged for a closer look

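Plate values of the 7 genes and of the pre-rRNA share were looked at in 32 groups of 8 plates for a plate far from the others, and 8 groups had one; chance marks about 1 in 20 such groups, and the values below are sums that can rest on few nuclei. Among suspensor-like nuclei, HD2A reached 144 CPM on plate 8, against 56.8 CPM on the nearest plate. HD2D reached 221 CPM on plate 5, all of it from a single nucleus, against 55.3 CPM. HDA6 reached 44.3 CPM on plate 2, all of it from a single nucleus, against 5.81 CPM. HDA19 reached 308 CPM on plate 8, against 101 CPM. Among seed-coat-like nuclei, HD2D reached 129 CPM on plate 7, against 58.4 CPM. Among embryo-proper-like nuclei, plate 3 stood apart for HD2A (933 CPM, against 342 CPM on the nearest plate) and for HD2D (363 CPM, against 199 CPM). HDA19 stood apart on plate 5, with 569 CPM against 169 CPM. Without these plates the HD2A means were 14.5 CPM in suspensor-like and 257 CPM in embryo-proper-like nuclei.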

How the results depend on the processing

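With 8 plates and sums of as few as 1 nucleus, a gene that is sparse in single nuclei has a wide standard error. So HDA6, HDA9, HDA19 and, between pre-rRNA levels, every deacetylase could differ by amounts that these sums cannot show. HD2A in suspensor-like nuclei was called in 17 of 18 alternatives, HD2B in 10 of 18, and HD2A in seed-coat-like nuclei in 10 of 17. Some alternatives also called genes that the first fit did not. In suspensor-like nuclei these were HD2D in 3 of 18, HD2C in 1 of 18 and HDA6 in 1 of 15. In seed-coat-like nuclei HD2D was called in 2 of 17. Leaving out each plate in turn gave HD2A log2 differences of -6.94 to -5.29 in suspensor-like nuclei. Fitted values moved with the number of nuclei in the sums. With equal numbers per plate the median gene lay at 0.71 in the suspensor-like comparison and 0.67 in the seed-coat-like one, and 559 genes were higher and 235 lower in the suspensor, 89 higher and 9 lower in the seed coat, in place of 384 and 541, and 78 and 190. Against embryo-proper-like nuclei outside the cell cycle states, 507 were higher and 138 lower in the suspensor.

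The number of called genes depended on the tool. In the suspensor-like comparison, where 925 were called, DESeq2 called 3534, limma 3078 and the fit without the plate block 526. In the seed-coat-like comparison (268), DESeq2 called 2630, limma 736, Leiden clusters gave 497, no filter 168, nuclei outside the cell cycle states 102, equal numbers 98, no plate block 88, and leaving out plates 107 to 276. In the mitosis-like comparison (67), DESeq2 called 1281, limma 108, equal numbers gave 43, no filter 41, and leaving out plates 27 to 68. In the pre-rRNA comparison (1), DESeq2 called 363, all nuclei outside seed coat and endosperm gave 44, tertiles and no filter 5 each, leaving out plates 1 to 5, and 0 were called without the block, by limma and under stricter limits, where 93, 364 and 144 had an unadjusted p under 0.05.

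No called deacetylase changed its direction. Directions that did change were of genes that passed no test. In the suspensor-like comparison HDA9 became 2.77 with equal numbers and 0.23 by limma. In the seed-coat-like one HDA19 became 0.44 with equal numbers and 0.43 with Leiden clusters, and HDA6 -0.50 under stricter limits, -0.46 with Leiden clusters and -0.11 without the block; leaving out plates gave -0.51 to 0.79 for HDA6 and -2.48 to 0.56 for HDA9. In the mitosis-like one HD2A became 0.77 and HD2C 1.18 by limma, HD2B -0.028 under stricter limits and -0.022 without the filter, and leaving out plates gave -1.49 to 0.14 for HD2D, -1.40 to 0.068 for HD2C, -0.25 to 0.45 for HD2B and -0.44 to 1.15 for HDA19. In the pre-rRNA one HDA19 became -0.15 in nuclei outside seed coat and endosperm, -0.32 outside mitosis and -0.011 by limma, HDA6 became 1.30 in the nuclei outside seed coat and endosperm, and leaving out plates gave -0.010 to 0.63 for HD2B. The causes were not tested. All 95 alternatives of the described levels, ratios and correlations stayed within 1 SD over plates. That limit is wide, since the SD could exceed the value itself, as for HDA19 in embryo-proper-like nuclei (130 ± 183 CPM, n = 8 plates).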
